A study of Mus musculus with 2 samples.

Results

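Cd209a dendritic cells are class II antigen-presenting cells of the mouse aneurysm wall that hold RNA of the C-type lectin gene Cd209a and little RNA of the complement genes C1qa, C1qb and C1qc. They were picked cell by cell. A member had no fewer than 200 genes and no more than 20% mitochondrial UMIs (unique molecular identifiers, 1 per captured RNA molecule). At least 1% of its UMIs came from the 4 class II genes H2-Aa, H2-Ab1, H2-Eb1 and Cd74, it held at least 1 Cd209a UMI, under 0.1% C1q UMIs and 0 UMIs of the B cell gene Cd79a. This left 132 of 7857 kept cells in the inhibitor library and 229 of 8664 in the DMSO library, or 361 of 16521 in all.

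Single-cell RNA-seq of aneurysm tissue was compared between an inhibitor group and a group given DMSO, the usual solvent control. The 2 libraries carry only initials, which were read as inhibitor and DMSO from the study's design text, and each group has 1 library. All mice, DMSO controls included, were 12 weeks old, carried the Apoe-/- genotype (no apolipoprotein E) and had an abdominal aortic aneurysm brought on by angiotensin II (Ang II). The labels state neither the name, dose or timing of the inhibitor nor how many animals went into a library. The model combines a germline gene loss with angiotensin II, so no group here is a healthy aorta and none has a working Apoe gene.

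Dendritic cells take up material in tissues, cut it into peptides and show these on class II molecules to CD4 T cells. Conventional dendritic cells need the growth factor receptor Flt3 and are split into type 1 cells, which express Xcr1 and Clec9a, and type 2 cells, which express Sirpa and often C-type lectins such as Clec10a, Mgl2 and Cd209a. Inflamed tissue also holds class II-positive cells that derive from Ccr2-positive blood monocytes, and these can carry Cd209a too. In the artery wall such cells lie mainly in the outer layer, the adventitia.

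The promoters of 2 class II genes that chose the cells are shown because they carry the short elements through which class II genes are switched on together, and those of 2 heat shock genes because the chaperone RNAs differed between the libraries. The sequences are RefSeq's for GRCm38.p6, 250 bases before the gene's start, 5′ to 3′ on the gene's strand. They are H2-Aa at chr17:34287824-34288073, minus strand, H2-Eb1 at chr17:34305617-34305866, plus strand, Hspe1 at chr1:55087898-55088147, plus strand, and Hspb1 at chr5:135887669-135887918, plus strand. In the class II promoters capitals mark ATTGG, the core of the Y box, on either strand, and CAACNGATG, a form of the X box; in the heat shock promoters they mark GAANNTTC, the pair of facing GAA units of a heat shock element, which reads the same on both strands. The motifs do not overlap one another here.
H2-Aa: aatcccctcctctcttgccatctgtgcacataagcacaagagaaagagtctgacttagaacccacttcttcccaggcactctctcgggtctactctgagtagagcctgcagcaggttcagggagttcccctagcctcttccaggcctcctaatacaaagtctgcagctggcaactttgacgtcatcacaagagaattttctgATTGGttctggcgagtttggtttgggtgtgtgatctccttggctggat
H2-Eb1: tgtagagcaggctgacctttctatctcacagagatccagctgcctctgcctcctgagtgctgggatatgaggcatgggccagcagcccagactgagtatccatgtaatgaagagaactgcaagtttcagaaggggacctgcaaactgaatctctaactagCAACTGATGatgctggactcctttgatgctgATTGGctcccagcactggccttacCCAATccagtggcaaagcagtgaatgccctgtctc
Hspe1: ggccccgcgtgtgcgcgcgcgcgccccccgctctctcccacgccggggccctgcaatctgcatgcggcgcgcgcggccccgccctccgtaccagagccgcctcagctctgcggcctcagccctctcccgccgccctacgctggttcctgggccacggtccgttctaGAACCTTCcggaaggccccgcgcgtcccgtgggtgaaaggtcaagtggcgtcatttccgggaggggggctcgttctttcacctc
Hspb1: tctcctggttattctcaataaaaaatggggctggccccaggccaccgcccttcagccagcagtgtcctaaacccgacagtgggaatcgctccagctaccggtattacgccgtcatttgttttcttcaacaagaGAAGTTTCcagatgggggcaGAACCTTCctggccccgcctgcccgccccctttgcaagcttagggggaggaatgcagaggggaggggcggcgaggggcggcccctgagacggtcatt
ATTGG was found in 33.8% of 32851 RefSeq promoters of this length, CAACNGATG in 0.460% and GAANNTTC in 6.69%. Of the 14 genes of the class II list 10 had a promoter entry, of which 8 held ATTGG and 2, H2-Eb1 and H2-Eb2, held CAACNGATG. Of the 19 heat shock and chaperone genes 16 had an entry and 6 held GAANNTTC, as did 3 of the 10 class II genes. ATTGG was not particular to the class II list, as 12 of the 16 heat shock and chaperone promoters held it. These matches describe the letters of each window and are not measured binding.

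In total, 8149 barcodes with 79648307 UMIs came from the inhibitor library and 9125 barcodes with 101139161 UMIs from the DMSO library. Members were about equally deep, with medians of 9401.5 UMIs and 2846.5 genes per inhibitor cell, 9422 UMIs and 2913 genes per DMSO cell, and median mitochondrial shares of 2.02% with inhibitor and 2.41% with DMSO. Summed, they gave 1364278 inhibitor and 2379967 DMSO UMIs. The libraries shared 16 barcodes, of which 0 belonged to a member. With 1 library per group no difference has a replicate check and none was tested. Intervals are exact 95% intervals that cover counting error only.

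The gate left a class of cells with a strong class II programme. Class II UMIs made up a median of 5.62% of a member's UMIs in inhibitor and 5.72% in DMSO members. The lowest member stood at 1.27% with inhibitor and 1.11% with DMSO. Of the cells under the limit that met every other condition, 54 with inhibitor and 95 with DMSO, the highest stood at 0.999% with inhibitor and 0.986% with DMSO. C1q reached 0.0931% with inhibitor and 0.0987% with DMSO inside the limit. It began at 0.102% in the 18 inhibitor cells and at 0.109% in the 54 DMSO cells beyond it. The median member had 10.5 Cd209a UMIs in inhibitor and 7 in DMSO members, with 15 inhibitor and 32 DMSO members at a single UMI; 128 inhibitor and 357 DMSO cells that met all other conditions had none. These values chose the cells and are a description.

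**Figure D1:**
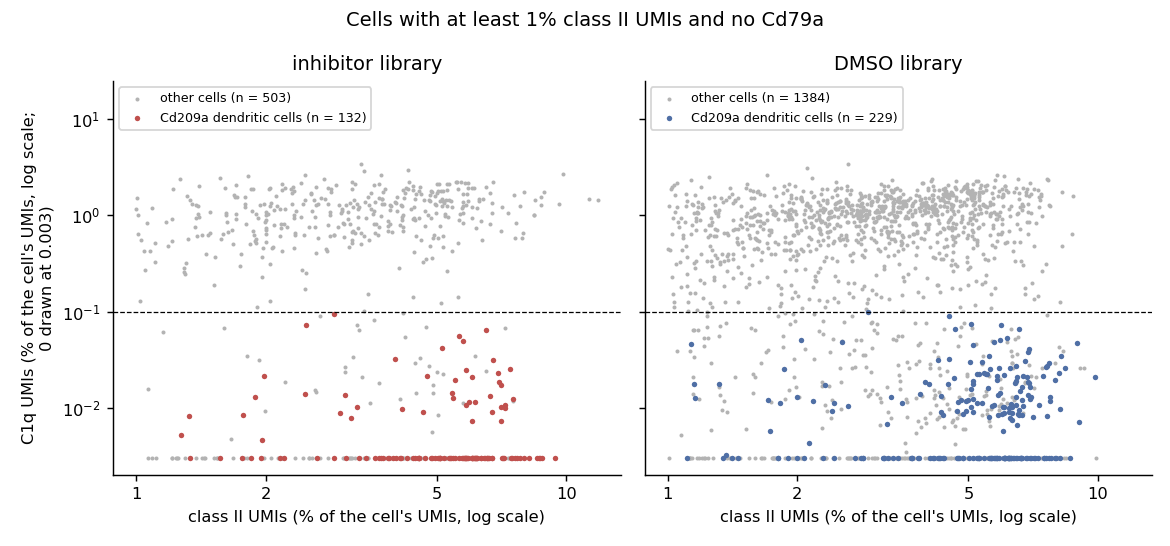
Each point is a cell with at least 1% class II UMIs and no Cd79a, by its class II share (x, % of UMIs, log scale) and its C1q share (y, % of UMIs, log scale, with 0 drawn at 0.003). Members, in red for the 132 inhibitor cells and blue for the 229 DMSO cells, lie under the dashed line at 0.1% C1q, and most other class II cells, in grey, lie above it.

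Markers of conventional dendritic cells that the gate did not use were present in members, and those of type 2 cells were mixed. Levels are counts per 1000000 UMIs (CPM) over the summed members. Flt3 was at 93.1 CPM in inhibitor and 117 CPM in DMSO members, Zbtb46, a transcription factor of conventional dendritic cells, at 27.9 CPM with inhibitor and 22.3 CPM with DMSO, and Itgax, encoding CD11c, at 140 CPM with inhibitor and 150 CPM with DMSO. In class II cells with C1q, the macrophage-rich comparison group of 375 inhibitor and 1027 DMSO cells, the same genes reached 5.56 CPM with inhibitor and 8.40 CPM with DMSO, 3.57 CPM with inhibitor and 2.27 CPM with DMSO, and 47.2 CPM with inhibitor and 58.7 CPM with DMSO. The 128 inhibitor and 357 DMSO class II cells without C1q or Cd209a held Flt3 and Zbtb46 at levels close to those of members, and less Itgax: Flt3 was at 102 CPM with inhibitor and 119 CPM with DMSO, Zbtb46 at 29.0 CPM with inhibitor and 23.2 CPM with DMSO and Itgax at 65.9 CPM with inhibitor and 87.9 CPM with DMSO. Clec10a, a galactose-binding lectin, was at 589 CPM with inhibitor and 474 CPM with DMSO in members, against 144 CPM with inhibitor and 238 CPM with DMSO in class II cells with C1q and 75.9 CPM with inhibitor and 73.8 CPM with DMSO in those without C1q or Cd209a. Irf4, a transcription factor of type 2 cells, was at 35.2 CPM with inhibitor and 44.5 CPM with DMSO in members, against 12.7 CPM with inhibitor and 12.4 CPM with DMSO in cells with C1q. Other genes of the type 2 list stood higher in cells with C1q. Sirpa, an inhibitory receptor, was at 196 CPM with inhibitor and 214 CPM with DMSO in members, against 304 CPM with inhibitor and 446 CPM with DMSO there, and Itgam, encoding CD11b, at 209 CPM with inhibitor and 242 CPM with DMSO in members, against 304 CPM with inhibitor and 341 CPM with DMSO there. Flt3 was seen in 50.0% of inhibitor and 62.0% of DMSO members, against 0.167% of inhibitor and 0.759% of DMSO smooth muscle and fibroblast cells, whose median depths were 10505 UMIs with inhibitor and 14251 UMIs with DMSO.

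Defining markers of type 1, migratory and plasmacytoid dendritic cells were low in the members, and lymphoid markers were uneven. The type 1 list of 6 genes summed to 19.8 CPM in inhibitor and 15.1 CPM in DMSO members, with Xcr1 at 2.20 CPM with inhibitor and 0 CPM with DMSO. The list of migratory dendritic cells, 7 genes that include Ccr7 and Fscn1, summed to 77.0 CPM with inhibitor and 43.7 CPM with DMSO. Of the plasmacytoid list Siglech was at 1.47 CPM with inhibitor and 2.94 CPM with DMSO and Ly6d at 0 in both libraries, while the interferon-inducible Bst2, which many cells express, was at 306 CPM with inhibitor and 208 CPM with DMSO. Cd3e was at 1.47 CPM with inhibitor and 2.52 CPM with DMSO, Ms4a1 at 0 CPM with inhibitor and 0.420 CPM with DMSO, and all 3 mesothelial genes at 0. Il7r of the T and NK cell list was at 66.7 CPM with inhibitor and 24.8 CPM with DMSO, and Ighm of the B cell list at 86.5 CPM with inhibitor and 89.5 CPM with DMSO. Monocyte genes were mixed, and the list of 8 summed to 1779 CPM in inhibitor and 2270 CPM in DMSO members. Plac8, the monocyte marker with the most RNA, was at 682 CPM with inhibitor and 1065 CPM with DMSO (ratio 0.640; 0.593 to 0.690), in 56.1% of inhibitor and 70.3% of DMSO members, and at 115 CPM with inhibitor and 250 CPM with DMSO in class II cells with C1q. Class II cells without C1q or Cd209a held Plac8 at 524 CPM with inhibitor and 1023 CPM with DMSO. Ccr2, the receptor for Ccl2, was at 653 CPM in inhibitor and 729 CPM in DMSO members, Ms4a4c at 378 CPM with inhibitor and 288 CPM with DMSO, but Vcan at 14.7 CPM with inhibitor and 29.4 CPM with DMSO and Chil3 at 2.93 CPM with inhibitor and 11.3 CPM with DMSO. Ccr2 was at 685 CPM with inhibitor and 712 CPM with DMSO in class II cells with C1q. In those without C1q or Cd209a Ccr2 was at 716 CPM with inhibitor and 551 CPM with DMSO. Ms4a4c was lower in the latter, at 183 CPM with inhibitor and 195 CPM with DMSO. Of the macrophage genes outside the gate, Mrc1 was at 127 CPM with inhibitor and 182 CPM with DMSO and Adgre1, encoding F4/80, at 19.8 CPM with inhibitor and 35.3 CPM with DMSO, against 1055 CPM with inhibitor and 846 CPM with DMSO and 337 CPM with inhibitor and 274 CPM with DMSO in class II cells with C1q. Flt3, Zbtb46 and Itgax fit the label of a dendritic cell, Sirpa and Itgam were lower in members than in cells with C1q, and Ccr2, Plac8 and Ms4a4c of the monocyte list were high beside them. Flt3, Zbtb46, Ccr2 and Plac8 were not particular to members, as class II cells without C1q or Cd209a held them too.

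**Figure D2:**
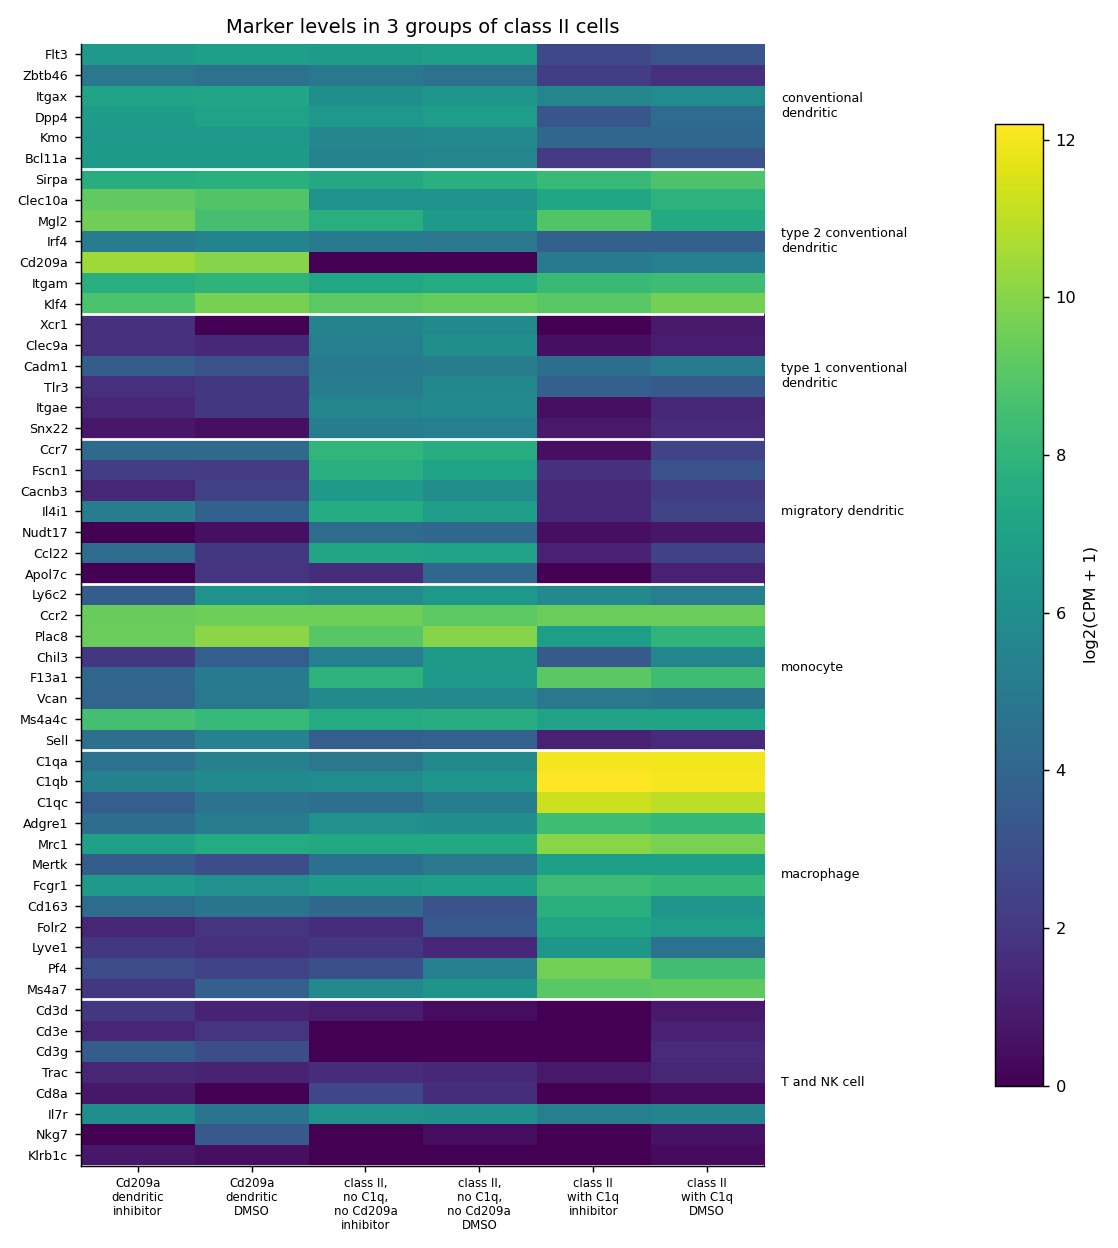
Colour gives log2(CPM + 1) of each marker (rows, grouped by the cell type it marks) in 3 groups of class II cells (columns, inhibitor left of DMSO in each pair). Flt3, Itgax, Clec10a and Mgl2 are bright in the Cd209a columns, where Xcr1, Clec9a and Fscn1 are low. Flt3 is also bright in the columns without C1q or Cd209a, which hold more Xcr1, Clec9a and Fscn1 than members. The C1q genes stand above 2000 CPM only in the cells chosen for C1q.

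The genes that set members apart most from all other kept cells, by their fold with both libraries weighted equally, were Cd209a, Klrd1, Cd7, Klrb1b, H2-Oa, Ffar2, Bcl11a, H2-DMb2, H2-Ob and Ifitm1. As the cells were chosen on their RNA, these folds are a description. Klrd1 encodes CD94, a lectin better known from natural killer cells, and was at 424 CPM in inhibitor and 366 CPM in DMSO members, against 2.80 CPM with inhibitor and 7.34 CPM with DMSO in all other cells. Bcl11a, a transcription factor of dendritic and B cells, was at 98.2 CPM with inhibitor and 99.2 CPM with DMSO, against 1.08 CPM with inhibitor and 3.78 CPM with DMSO. H2-Oa and H2-Ob encode both chains of H2-O, which restrains peptide loading, and were at 130 CPM with inhibitor and 175 CPM with DMSO and at 81.4 CPM with inhibitor and 93.7 CPM with DMSO. Class II cells without C1q or Cd209a held Klrd1 at 160 CPM with inhibitor and 141 CPM with DMSO. Bcl11a was there at 42.9 CPM with inhibitor and 45.5 CPM with DMSO. H2-Oa stood at 71.9 CPM with inhibitor and 109 CPM with DMSO there, and H2-Ob at 58.9 CPM with inhibitor and 61.7 CPM with DMSO. Napsa, an aspartic protease gene (chromosome 7, 44572380 to 44586862, plus strand, GRCm38), was at 846 CPM with inhibitor and 767 CPM with DMSO and was detected in 97.0% of inhibitor and 94.8% of DMSO members, against 65.1 CPM with inhibitor and 79.5 CPM with DMSO in class II cells with C1q and 419 CPM with inhibitor and 402 CPM with DMSO in those without C1q or Cd209a. Ifitm1, an interferon-induced membrane protein gene (chromosome 7, 140967221 to 140969825, plus strand), was at 1928 CPM with inhibitor and 2010 CPM with DMSO, and in 66.7% of inhibitor and 75.1% of DMSO members; class II cells without C1q or Cd209a held it at 778 CPM with inhibitor and 973 CPM with DMSO.

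The members were not uniform. Ifitm1 and Lyz2, which encodes the lysozyme of myeloid cells, tended to be high in different members. A member was put on the Lyz2 side when it held more Lyz2 than Ifitm1 UMIs, a division chosen after seeing these data. On that side were 48 of 132 inhibitor members (36.4%; 28.2 to 45.2%) and 75 of 229 DMSO members (32.8%; 26.7 to 39.2%). The division is a range and not a type: 16 inhibitor and 57 DMSO members lay within 1 log2 unit of equal counts. Lyz2-side members held Ccr2 at 914 CPM with inhibitor and 1003 CPM with DMSO, the receptor gene Csf1r at 178 CPM with inhibitor and 204 CPM with DMSO, and Mrc1 at 225 CPM with inhibitor and 391 CPM with DMSO. Ifitm1-side members held Ccr2 at 477 CPM with inhibitor and 573 CPM with DMSO, Csf1r at 78.7 CPM with inhibitor and 120 CPM with DMSO, and Mrc1 at 60.2 CPM with inhibitor and 63.3 CPM with DMSO. Flt3 was at 65.4 CPM with inhibitor and 76.3 CPM with DMSO on the Lyz2 side and at 112 CPM with inhibitor and 141 CPM with DMSO on the Ifitm1 side, Kit, a stem cell factor receptor gene, at 21.8 CPM with inhibitor and 13.9 CPM with DMSO and at 76.2 CPM with inhibitor and 77.2 CPM with DMSO. Klrd1 followed Ifitm1, at 200 CPM with inhibitor and 143 CPM with DMSO on the Lyz2 side, and at 575 CPM with inhibitor and 493 CPM with DMSO on the Ifitm1 side. Napsa did likewise, at 449 CPM with inhibitor and 421 CPM with DMSO on the Lyz2 side, and at 1115 CPM with inhibitor and 964 CPM with DMSO on the Ifitm1 side. H2-Eb1, a gate gene and so held up by the rule on each side, was at 9439 CPM with inhibitor and 8168 CPM with DMSO on the Lyz2 side and at 10202 CPM with inhibitor and 9923 CPM with DMSO on the Ifitm1 side.

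Members made up a smaller share of all kept cells in the inhibitor library. They were 1.68% (1.41 to 1.99%) of inhibitor cells and 2.64% (2.32 to 3.0%) of DMSO cells, a log2 ratio of -0.65 (-0.97 to -0.34). Among cells with RNA of Ptprc, the gene of the leukocyte antigen CD45, the order was the opposite: 128 of 1053 (12.2%; 10.2 to 14.3%) in the inhibitor and 226 of 3039 (7.44%; 6.53 to 8.43%) in the DMSO library, a log2 ratio of 0.71 (0.38 to 1.03). Among cells that passed the class II minimum they were 132 of 642 (20.6%) with inhibitor and 229 of 1655 (13.8%) with DMSO, a log2 ratio of 0.57 (0.25 to 0.89). The direction therefore turns with the denominator, since Ptprc-positive and class II cells were themselves a smaller part of the inhibitor library.

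The share also turned on the C1q limit. With 0 C1q UMIs asked for, 90 inhibitor members (1.15%) and 95 DMSO members (1.10%) were left, a log2 ratio of 0.063 (-0.37 to 0.49). C1q RNA was also found in cells that should lack it: 26.3% of 3359 inhibitor smooth muscle cells and 65.0% of 722 DMSO smooth muscle cells held a C1q UMI, at median depths of 11297 UMIs with inhibitor and 13963.5 UMIs with DMSO, for 70.1 CPM with inhibitor and 168 CPM with DMSO. Of members 31.8% with inhibitor and 58.5% with DMSO held one, for 74.0 CPM with inhibitor and 119 CPM with DMSO. Cd209a itself reached 0.536 CPM with inhibitor and 0.839 CPM with DMSO in smooth muscle cells, against 1410 CPM with inhibitor and 1027 CPM with DMSO in members, whose Cd209a was fixed above 0 by the gate. Thinning every cell to 2000 UMIs before the gate, with 948 inhibitor and 1380 DMSO cells left out as shallower, gave 102 inhibitor and 162 DMSO members and a log2 ratio of -0.59.

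Across the members' RNA 6282 genes were measured, that is, reached 20 CPM in a library and 20 UMIs over both. A gene was called higher or lower where the ratio of CPM, inhibitor over DMSO, was at least 1.5-fold in that direction and its interval left out 1. By this rule 292 genes (4.65%) were higher and 594 (9.46%) lower in the inhibitor members, and the median log2 ratio of all measured genes was -0.03. Some of these genes were far higher in other cells. In 700 measured genes the members' level was under 20% of that of another cell type of the same library, and these gave 113 higher and 169 lower calls. Of those 113, 56 were highest in smooth muscle and 44 in endothelial cells; of the 169, 58 were highest in fibroblasts and 48 in adipocytes. Over the whole smooth muscle list, 7 of 7 genes were found in each library, for 2600 CPM in inhibitor and 921 CPM in DMSO members. The 7 fibroblast genes summed to 1762 CPM with inhibitor and 3795 CPM with DMSO, and the 6 adipocyte genes to 19.1 CPM with inhibitor and 547 CPM with DMSO. Stromal markers passed 0.5% of UMIs in 11 of 132 inhibitor and 20 of 229 DMSO members. The part of this RNA in the gene ratios was tested only by leaving out those cells, which gave 283 higher and 520 lower genes, of which 203 and 436 were called in all members too.

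**Figure D3:**
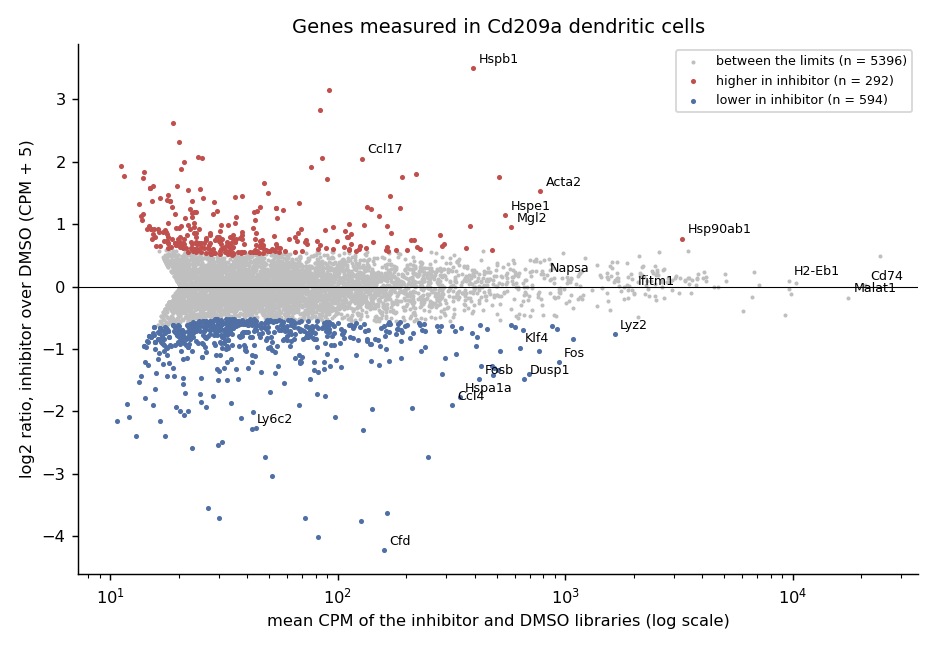
Each of the 6282 measured genes is a point, by its mean CPM over both libraries (x, log scale) and its log2 ratio, inhibitor over DMSO, with 5 CPM added (y). The 292 genes called higher are red, the 594 called lower blue; Hspb1, Ccl17, Hspe1 and Mgl2 stand above 0, Dusp1, Fosb, Klf4 and Ccl4 below it, and the class II genes, Napsa and Ifitm1 near it.

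Class II antigen presentation held no called gene. Of the class II list 13 of 14 genes were measured and 0 were called in either direction, with a median log2 ratio of -0.04. The 4 class II genes of the gate are part of that count and were held up by it: H2-Aa was at 9484 CPM with inhibitor and 10281 CPM with DMSO, H2-Ab1 at 9513 CPM with inhibitor and 9781 CPM with DMSO, H2-Eb1 at 9894 CPM with inhibitor and 9286 CPM with DMSO and Cd74, the invariant chain, at 20997 CPM with inhibitor and 20699 CPM with DMSO. The 9 genes outside the gate also had 0 calls and a median of -0.06, beside 4.65% of all measured genes called higher and 9.46% lower. Ciita, the coactivator through which the X and Y box elements shown above act, was at 377 CPM in inhibitor and 355 CPM in DMSO members. Ctss, which trims the invariant chain, was at 1680 CPM with inhibitor and 1593 CPM with DMSO, and H2-DMb1, a chain of the peptide-loading factor H2-DM, at 877 CPM with inhibitor and 670 CPM with DMSO. In class I presentation 1 of 11 measured genes was lower, the peptide transporter gene Tap1, at 79.2 CPM with inhibitor and 122 CPM with DMSO (ratio 0.650; 0.516 to 0.813), and 0 were higher. That count is near the 9.46% of all genes called lower.

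Among costimulatory genes 3 of 10 measured were lower and 0 higher, beside 9.46% of all genes lower and 4.65% higher; the median log2 ratio was -0.26. Tnfsf9, encoding the 4-1BB ligand, was at 42.5 CPM in inhibitor and 116 CPM in DMSO members (ratio 0.368; 0.272 to 0.490). Tnfsf4, encoding the OX40 ligand, was at 8.06 CPM with inhibitor and 33.6 CPM with DMSO (ratio 0.240; 0.115 to 0.453), and Cd83, an activation marker, at 44.7 CPM with inhibitor and 83.6 CPM with DMSO (ratio 0.535; 0.395 to 0.716). The other activation ligands lay between the limits. Cd86 was at 84.3 CPM with inhibitor and 112 CPM with DMSO, Cd80 at 23.5 CPM with inhibitor and 18.9 CPM with DMSO and Cd40 at 26.4 CPM with inhibitor and 23.5 CPM with DMSO.

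Of 14 measured C-type lectin and pattern receptor genes 1 was higher, Mgl2, and 4 were lower, Clec4a1, Clec4a3, Cd14 and Myd88, where 4.65% of all genes were higher and 9.46% lower. Mgl2 (chromosome 11, 70130329 to 70137550, plus strand), a galactose-binding lectin gene next in kind to Clec10a, was at 762 CPM in inhibitor and 393 CPM in DMSO members (ratio 1.94; 1.77 to 2.12). It was found in 71 of 132 inhibitor members (53.8%) and 77 of 229 DMSO members (33.6%), against 2.02% of inhibitor and 2.62% of DMSO stromal cells. The ratio was 1.92 without the 3 members richest in Mgl2 in each library, 1.74 on the Lyz2 side and 2.09 on the Ifitm1 side. Mgl2 was also at 481 CPM with inhibitor and 174 CPM with DMSO in class II cells with C1q, and at 202 CPM with inhibitor and 100 CPM with DMSO in class II cells without C1q or Cd209a. Clec4a1, of the DCIR family, was at 58.6 CPM with inhibitor and 139 CPM with DMSO (ratio 0.423; 0.327 to 0.541), and Myd88, the adaptor of Toll-like receptors, at 82.8 CPM with inhibitor and 151 CPM with DMSO (ratio 0.548; 0.439 to 0.678). Cd209a itself was at 1410 CPM with inhibitor and 1027 CPM with DMSO, and Cd209d, a close relative whose reads could be confused with it, at 64.5 CPM with inhibitor and 52.5 CPM with DMSO.

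Most chemokine genes were lower in the inhibitor members. Of 13 measured genes 11 were lower and 1 higher, against 9.46% of all genes lower and 4.65% higher, and the list's median log2 ratio was -0.85, but 7 of the 13 were under 20% of their level in another cell type. Ccl4 (chromosome 11, 83662584 to 83664683, plus strand), whose product draws in monocytes and T cells, was at 131 CPM in inhibitor and 505 CPM in DMSO members (ratio 0.260; 0.221 to 0.304). It was found in 31.1% of inhibitor and 46.3% of DMSO members, against 1.06% of inhibitor and 9.73% of DMSO stromal cells, and its level in members was 18.1% of that in neutrophils. Cxcl2, a neutrophil attractant, was at 151 CPM with inhibitor and 314 CPM with DMSO but only 2.54% of the neutrophil level, and Ccl9 at 288 CPM with inhibitor and 487 CPM with DMSO. Ccl5 was at 57.9 CPM with inhibitor and 149 CPM with DMSO, but 196 of its 355 UMIs in the DMSO members came from 1 cell. Cxcl1, another neutrophil attractant, was at 0.733 CPM with inhibitor and 25.2 CPM with DMSO and Ccl8 at 8.06 CPM with inhibitor and 44.5 CPM with DMSO, both far under other cell types. Ccl2, the ligand of Ccr2, was at 52.0 CPM with inhibitor and 95.4 CPM with DMSO. Cxcl16, a scavenger receptor and chemokine, was between the limits at 167 CPM with inhibitor and 155 CPM with DMSO.

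Ccl17 (chromosome 8, 94810453 to 94812036, plus strand), a ligand of Ccr4 and a product of type 2 dendritic cells, was the chemokine that was higher. It was at 208 CPM in inhibitor and 46.6 CPM in DMSO members (ratio 4.46; 3.57 to 5.61). Only part of the members held it: 24 of 132 (18.2%) inhibitor and 6 of 229 (2.62%) DMSO members held a Ccl17 UMI, against 0.630% of inhibitor and 1.11% of DMSO stromal cells. Few cells carried much of the sum, since the richest held 61 of 284 UMIs in inhibitor and 90 of 111 in DMSO members. Without the 3 richest members of each library the ratio was 41.0. That value is imprecise and was given no interval, since few DMSO UMIs were then left. Ccl17 was at 373 CPM with inhibitor and 76.5 CPM with DMSO in class II cells without C1q or Cd209a, and at 2.78 CPM with inhibitor and 5.87 CPM with DMSO in those with C1q. On the Ifitm1 side it was at 297 CPM with inhibitor and 66.7 CPM with DMSO, on the Lyz2 side at 76.3 CPM with inhibitor and 11.6 CPM with DMSO.

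Of 6 measured cytokine genes 3 were lower and 0 higher, beside 9.46% of all genes lower. The list's median log2 ratio was -0.39 in members, -0.57 in class II cells with C1q and -0.52 in those without C1q or Cd209a. Il1b (chromosome 2, 129364570 to 129371139, minus strand), encoding interleukin-1 beta, was at 295 CPM in inhibitor and 523 CPM in DMSO members (ratio 0.565; 0.503 to 0.632). Tnf was at 91.6 CPM with inhibitor and 144 CPM with DMSO (ratio 0.636; 0.514 to 0.782) and Osm at 13.2 CPM with inhibitor and 26.1 CPM with DMSO. Il1b and Osm were under 20% of the neutrophil level. Il1b was also lower on each side of the Lyz2 division, whereas Tnf was lower on the Ifitm1 side, at 71.3 CPM with inhibitor and 162 CPM with DMSO, and stood at 122 CPM with inhibitor and 112 CPM with DMSO on the Lyz2 side. Tgfb1 (149 CPM with inhibitor and 166 CPM with DMSO) and Ltb (87.2 CPM with inhibitor and 87.4 CPM with DMSO) lay between the limits. Among 13 measured receptor genes 3 were lower, Cxcr4 (45.4 CPM with inhibitor and 111 CPM with DMSO), the decoy receptor Il1r2 (55.0 CPM with inhibitor and 101 CPM with DMSO) and Csf2rb2 (38.1 CPM with inhibitor and 58.8 CPM with DMSO), and 0 were higher, against 9.46% of all genes lower. The Il1r2 level in members was 8.80% of that in neutrophils.

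Of 20 measured transcription factor genes of the dendritic lineage 2 were lower and 0 higher, near the 9.46% of all genes called lower, with a median of -0.02 over the list. Spi1, encoding PU.1, was at 394 CPM in inhibitor and 383 CPM in DMSO members, Id2 at 361 CPM with inhibitor and 318 CPM with DMSO and Batf3 at 61.6 CPM with inhibitor and 62.6 CPM with DMSO. The lower ones were Nfil3 (19.8 CPM with inhibitor and 44.5 CPM with DMSO) and Klf4 (chromosome 4, 55527143 to 55532466, minus strand), a factor that part of the type 2 cells need, at 422 CPM with inhibitor and 838 CPM with DMSO (ratio 0.504; 0.459 to 0.553). Klf4 was detected in 84.8% of inhibitor and 93.9% of DMSO members, and stood at 542 CPM with inhibitor and 798 CPM with DMSO in class II cells with C1q and at 549 CPM with inhibitor and 635 CPM with DMSO in those without C1q or Cd209a. Klf4 is also an immediate early gene in many cells. The Nfil3 level in members was 19.2% of that in neutrophils.

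In the list of NF-kappa-B subunits and feedback inhibitors, through which inflammatory signals act, 4 of 14 measured genes were lower and 0 higher, beside 9.46% of all genes lower; the median log2 ratio was -0.42. The lower ones included the feedback genes Tnfaip3 (47.6 CPM with inhibitor and 127 CPM with DMSO; ratio 0.375, 0.283 to 0.492), Nfkbiz (99.7 CPM with inhibitor and 235 CPM with DMSO; ratio 0.424, 0.349 to 0.513) and Nfkbid (74.8 CPM with inhibitor and 165 CPM with DMSO; ratio 0.453, 0.361 to 0.564), and Birc3. Tnfaip3 was under 20% of its level in T and NK cells. The median log2 ratio of this list was also -0.31 in class II cells with C1q and -0.27 in those without C1q or Cd209a. The subunit genes lay between the limits, with Nfkb1 at 265 CPM with inhibitor and 303 CPM with DMSO and Rela at 51.3 CPM with inhibitor and 61.8 CPM with DMSO. Of 16 measured interferon-stimulated genes 7 were lower and 0 higher, where 9.46% of all genes were lower, but all 7 were low, with Isg15, a ubiquitin-like protein gene, the highest at 95.3 CPM with inhibitor and 146 CPM with DMSO. Ifit1, an RNA-binding antiviral protein gene, was at 14.7 CPM with inhibitor and 50.4 CPM with DMSO, in 8.33% of inhibitor and 16.6% of DMSO members. Per member the interferon list took a median of 0.0597% of UMIs with inhibitor and 0.0591% with DMSO. The maximum was 0.699% with inhibitor and 1.39% with DMSO. These shares include Bst2, which went the other way, at 306 CPM with inhibitor and 208 CPM with DMSO. The whole list summed to 843 CPM with inhibitor and 928 CPM with DMSO. The share per member without Bst2 was not computed. Single DMSO cells gave 19 of 120 Ifit1 UMIs, 17 of 72 Ifit3 UMIs and 20 of 82 Isg20 UMIs. The sides of the Lyz2 division differed here: Ifit2 was at 7.37 CPM with inhibitor and 33.7 CPM with DMSO on the Ifitm1 side but at 23.6 CPM with inhibitor and 8.10 CPM with DMSO on the Lyz2 side, and Ifit3 likewise at 13.5 CPM with inhibitor and 42.2 CPM with DMSO and at 25.4 CPM with inhibitor and 9.25 CPM with DMSO.

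Immediate early genes formed the largest group of lower genes among the 17 lists. These genes, transcription factors such as Fos and feedback enzymes such as Dusp1, are switched on within minutes of a stimulus and also when tissue is digested into single cells, as it was here. Of 18 measured genes 16 were lower and 0 higher, against 9.46% of all genes lower, and the list's median log2 ratio was -1.12. Dusp1 (chromosome 17, 26505590 to 26562128, minus strand), a phosphatase that turns off MAP kinases, was at 344 CPM in inhibitor and 974 CPM in DMSO members (ratio 0.353; 0.319 to 0.390). Fosb (chromosome 7, 19302696 to 19310051, minus strand) was at 219 CPM with inhibitor and 621 CPM with DMSO (ratio 0.353; 0.311 to 0.400), Fos at 563 CPM with inhibitor and 1311 CPM with DMSO, and Egr1 at 276 CPM with inhibitor and 675 CPM with DMSO. Klf2, a factor of quiescence, was at 157 CPM with inhibitor and 421 CPM with DMSO (ratio 0.373; 0.320 to 0.433). The others between the limits were Jund (714 CPM with inhibitor and 805 CPM with DMSO) and Btg2 (551 CPM with inhibitor and 761 CPM with DMSO).

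The difference was spread over cells. Per member the 18 genes took a median of 0.564% of UMIs in the inhibitor library (quartiles 0.445 and 0.703%), against 1.12% in the DMSO library (quartiles 0.876 and 1.42%). The quartile ranges did not meet, and the full ranges, up to 1.51% in inhibitor and 3.40% in DMSO members, overlapped. It was not confined to members: the median was 0.732% with inhibitor and 1.11% with DMSO in class II cells with C1q, and 0.571% with inhibitor and 0.983% with DMSO in those without C1q or Cd209a. The list's median log2 ratio was -0.77 in class II cells with C1q and -0.85 in those without C1q or Cd209a. Whether the ratio in members differs from theirs cannot be tested with 1 library per group. Dusp1 RNA was also common in stromal cells, in 72.3% of the inhibitor and 90.4% of the DMSO cells, and its level in members was 20.8% of that in neutrophils. The part that handling of each tissue sample, free RNA or the inhibitor has in these values cannot be told apart.

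**Figure D4:**
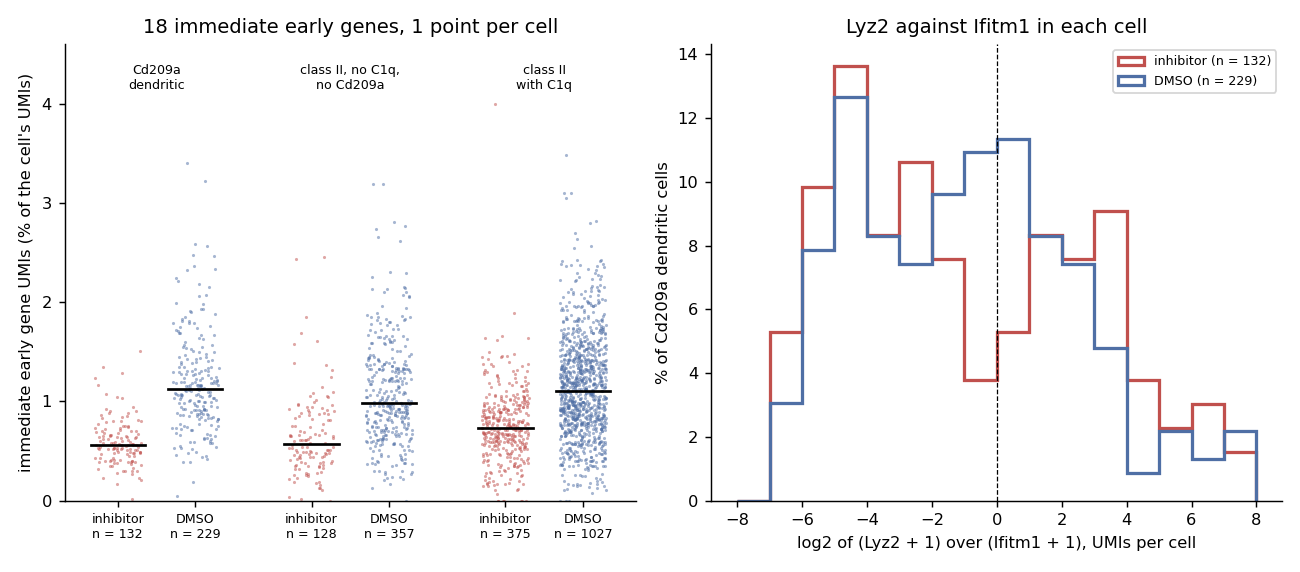
Left, the share of UMIs from 18 immediate early genes in each cell (y, %), with 1 point per cell and a line at the median, for members and the other class II cells, inhibitor left of DMSO; the member medians are 0.564% with inhibitor and 1.12% with DMSO. Right, the share of members (y, %) by the log2 of Lyz2 over Ifitm1 UMIs with 1 added to each (x), with the dashed line at equal counts; both libraries spread over both sides.

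Heat shock and chaperone genes split in both directions. Of 19 measured genes 7 were higher and 4 lower, beside 4.65% of all genes higher and 9.46% lower; the median log2 ratio was 0.44. Hspe1, the small partner of the mitochondrial chaperonin (chromosome 1, 55088132 to 55091307, plus strand), was at 752 CPM in inhibitor and 338 CPM in DMSO members (ratio 2.23; 2.03 to 2.44) and was found in 97.7% of inhibitor and 86.0% of DMSO members. Its chaperonin Hspd1, which starts beside it on the opposite strand, was at 265 CPM with inhibitor and 156 CPM with DMSO. The cytosolic chaperone gene Hsp90ab1 was at 4119 CPM with inhibitor and 2423 CPM with DMSO (ratio 1.70; 1.64 to 1.76), Hsph1, at 16.8% of its level in another cell type, at 180 CPM with inhibitor and 107 CPM with DMSO, and the endoplasmic reticulum genes Pdia4 at 125 CPM with inhibitor and 73.1 CPM with DMSO and Pdia6 at 445 CPM with inhibitor and 288 CPM with DMSO. Fkbp4, a co-chaperone of Hsp90 outside the list, was at 174 CPM with inhibitor and 86.1 CPM with DMSO (ratio 2.03; 1.67 to 2.45).

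The stress-inducible Hsp70 genes went the other way. Hspa1a (chromosome 17, 34969190 to 34972156, minus strand) was at 152 CPM in inhibitor and 534 CPM in DMSO members (ratio 0.285; 0.245 to 0.331), in 53.8% of inhibitor and 77.3% of DMSO members. Its near-identical copy Hspa1b, with which it shares reads, was at 103 CPM with inhibitor and 188 CPM with DMSO, so the level of each is uncertain. Dnajb1, an Hsp40 gene induced with them, was at 56.4 CPM with inhibitor and 105 CPM with DMSO, and Ddit3, encoding CHOP, at 42.5 CPM with inhibitor and 82.4 CPM with DMSO. Both Hspa1a and Hspe1 have GAANNTTC in their promoter window, and their ratios had opposite directions. In the other class II cells the whole list had medians of 0.52 with C1q and 0.51 without C1q or Cd209a, and Hspa1a stood at 304 CPM with inhibitor and 422 CPM with DMSO and at 492 CPM with inhibitor and 455 CPM with DMSO.

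Hspb1 had the largest ratio of the list, at 726 CPM in inhibitor and 59.7 CPM in DMSO members (ratio 12.2; 10.2 to 14.6). It encodes a small heat shock protein that muscle cells hold in large amounts. Its level in members was 5.85% of that in smooth muscle cells, and 267 of 991 inhibitor UMIs came from 1 cell; without the 3 richest members of each library the ratio was 8.03. The smooth muscle list was higher in the same members, at 2600 CPM with inhibitor and 921 CPM with DMSO. It was found in 79.5% of inhibitor and 27.9% of DMSO members, and was at 702 CPM with inhibitor and 118 CPM with DMSO in class II cells with C1q. The part of smooth muscle RNA in its ratio was not tested.

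**Figure D5:**
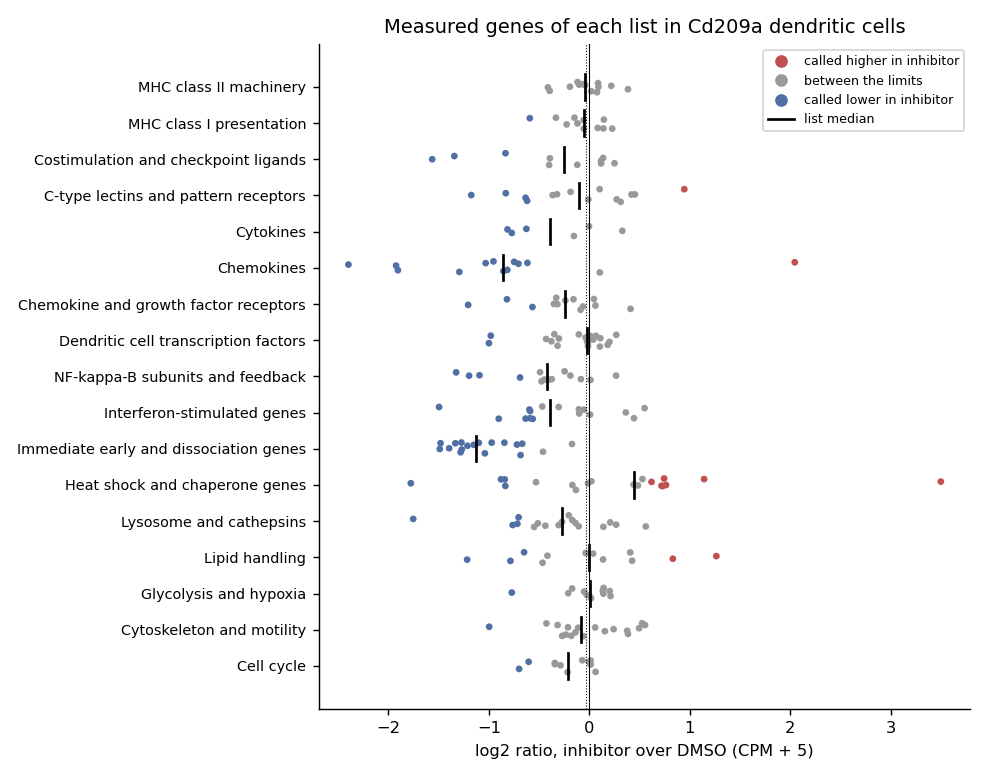
Each point is a measured gene of a list (rows) by its log2 ratio, inhibitor over DMSO, with 5 CPM added (x); black bars are list medians and the dotted line is the median of all measured genes, -0.03. Red points are genes called higher and blue points genes called lower; immediate early genes and chemokines lie mostly left of 0, with Ccl17 far right, while class II genes lie around it.

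Lysosomal genes were mostly between the limits, with 4 of 17 lower and 0 higher, beside 9.46% of all genes lower. Lyz2 (chromosome 10, 117277331 to 117282321, minus strand) was at 1221 CPM in inhibitor and 2076 CPM in DMSO members (ratio 0.588; 0.556 to 0.622), and was lower on both sides of its own division, where the split itself was made on it. Reads of Lyz2 can be split with its copy Lyz1, which was at 37.4 CPM with inhibitor and 138 CPM with DMSO, with 275 of 328 DMSO UMIs from 1 cell, and without the 3 richest members its ratio was 0.581 in place of 0.271. In smooth muscle cells Lyz2 was at 50.8 CPM with inhibitor and 142 CPM with DMSO, and the source of these UMIs was not tested. Ctsd, a cathepsin gene, was at 177 CPM with inhibitor and 292 CPM with DMSO and Lamp2, a lysosomal membrane protein gene, at 183 CPM with inhibitor and 303 CPM with DMSO. The Ctsd level in members was 12.3% of that in class II cells with C1q. Cst3, a cathepsin inhibitor that dendritic cells make in quantity, was at 4146 CPM with inhibitor and 2806 CPM with DMSO and lay just under the limit at a ratio of 1.48.

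In lipid handling 2 of 12 measured genes were higher and 3 lower, where 4.65% of all genes were higher and 9.46% lower; the median log2 ratio was 0.00. Fabp5, a fatty acid carrier gene, was at 361 CPM in inhibitor and 200 CPM in DMSO members (ratio 1.8; 1.58 to 2.05). It was found in fewer inhibitor members, 39.4% against 46.3% with DMSO. The richest cell held 129 of 492 UMIs with inhibitor and 99 of 477 with DMSO. Leaving out the 3 richest members of each library gave a ratio of 1.52. The other higher gene, Cd36, rests on few cells: 4 of 132 inhibitor members held it, and 59 of 106 UMIs came from 1 of them, so that without the 3 richest the ratio was 0.0602. Abca1, a cholesterol exporter, was at 53.5 CPM with inhibitor and 95.8 CPM with DMSO, and Lpl, lipoprotein lipase, at 96.0 CPM with inhibitor and 153 CPM with DMSO. Apoe, whose gene is disrupted in all these mice but still gave reads, was at 17.6 CPM with inhibitor and 47.5 CPM with DMSO, 4.91% of its level in class II cells with C1q. Other metabolic and structural genes were called lower about as often as the 9.46% of all genes or less: 1 of 12 glycolysis and hypoxia genes (Hilpda, 13.2 CPM with inhibitor and 26.1 CPM with DMSO) and 1 of 18 cytoskeleton and motility genes (Ifitm6, 107 CPM with inhibitor and 218 CPM with DMSO) were lower and 0 were higher. Gapdh was at 937 CPM with inhibitor and 853 CPM with DMSO. Malat1, a nuclear long non-coding RNA, was at 16473 CPM with inhibitor and 18643 CPM with DMSO (ratio 0.884; 0.870 to 0.898).

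Cell cycle genes took a median of 0.248% of UMIs in inhibitor and 0.256% in DMSO members. In class II cells with C1q the median was lower, at 0.130% with inhibitor and 0.138% with DMSO, and in those without C1q or Cd209a it was 0.219% with inhibitor and 0.197% with DMSO. RNA of Mki67, Top2a or Birc5 was found in 18 of 132 inhibitor members (13.6%; 8.29 to 20.7%) and 54 of 229 DMSO members (23.6%; 18.2 to 29.6%), against 4.28% of inhibitor and 11.9% of DMSO stromal cells. After thinning to 2000 UMIs it was found in 5.34% of inhibitor and 5.80% of DMSO members and 1.41% of inhibitor and 3.82% of DMSO stromal cells, in the same order as unthinned but with a smaller gap in members. Of 11 measured cell cycle genes 2 were lower, Top2a (41.0 CPM with inhibitor and 69.7 CPM with DMSO) and Ube2c (23.5 CPM with inhibitor and 38.2 CPM with DMSO, with 42 of 91 DMSO UMIs from 1 cell), and 0 were higher, beside 9.46% of all genes lower.

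Outside the lists, the genes with the highest ratios, among those at 20% or more of their level in the richest other cell type, included a set of anti-apoptotic Bcl2 relatives. Bcl2a1b was at 199 CPM in inhibitor and 81.1 CPM in DMSO members (ratio 2.45; 2.03 to 2.96), Bcl2a1d at 211 CPM with inhibitor and 93.3 CPM with DMSO and Bcl2a1a at 57.9 CPM with inhibitor and 18.1 CPM with DMSO. These copies are near-identical, so how reads were split among them is uncertain. Bcl2a1b stood at 42.6% and Bcl2a1a at 41.9% of the neutrophil level. AA467197, known in human as NMES1, was at 347 CPM with inhibitor and 96.2 CPM with DMSO (ratio 3.60; 3.07 to 4.24), in 47.7% of inhibitor and 23.6% of DMSO members, at 44.6% of the neutrophil level. The part of neutrophil RNA in these ratios was not tested. In class II cells with C1q AA467197 was at 73.4 CPM with inhibitor and 80.0 CPM with DMSO. In those without C1q or Cd209a AA467197 was at 218 CPM with inhibitor and 164 CPM with DMSO. Others with ratios between 1.94 and 2.46 were Fnbp1l, Lman2l, Uchl3 and the predicted genes Gm9794 and Gm9843.

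Among the lowest ratios outside the lists stood Ly6c2, the Ly6C antigen of inflammatory monocytes (chromosome 15, 75108158 to 75111970, minus strand). It was at 11 CPM in inhibitor and 72.7 CPM in DMSO members (ratio 0.151; 0.0829 to 0.256), in 11 of 132 inhibitor and 28 of 229 DMSO members, and 60 of the 173 DMSO UMIs came from 1 cell. Without the 3 richest members of each library the ratio was 0.177. Reads of Ly6c2 and its neighbour Ly6c1 can be confused. In class II cells with C1q Ly6c2 was at 52.0 CPM with inhibitor and 35.7 CPM with DMSO. In those without C1q or Cd209a Ly6c2 was lower with inhibitor as in members, at 58.9 CPM with inhibitor and 89.6 CPM with DMSO. Neat1, a long non-coding RNA of nuclear paraspeckles, was at 259 CPM with inhibitor and 703 CPM with DMSO (ratio 0.368; 0.327 to 0.413), Sqstm1, an autophagy receptor gene, at 43.2 CPM with inhibitor and 120 CPM with DMSO, the phosphate carrier Slc20a1 at 23.5 CPM with inhibitor and 68.9 CPM with DMSO and the sulphate donor carrier Slc35b2 at 27.1 CPM with inhibitor and 79.0 CPM with DMSO. Of the genes that lead the members, Ffar2, a short-chain fatty acid receptor gene, was at 94.6 CPM with inhibitor and 183 CPM with DMSO (ratio 0.517; 0.422 to 0.631), and Klrb1b, an inhibitory lectin gene, at 103 CPM with inhibitor and 170 CPM with DMSO (ratio 0.603; 0.494 to 0.733).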

How the data were processed

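Aneurysm tissue was cut into 5 segments, digested and run as 10x Chromium 3' v3 single-cell libraries, per the labels' protocols. The authors deposited UMI counts per gene and cell, as whole-number counts that were not normalized; Cell Ranger 6.1.1, Seurat and the build GRCm38 appear, per the submitters' processing notes, without saying what Seurat did. All 55450 gene rows were found in GENCODE M21, the source of gene coordinates; promoters were RefSeq's (222 of 287 listed genes had an entry).

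Cells were kept and members gated as described in the report, with no doublet step, in Python 3.11.15 with scipy 1.17.1 and scanpy 1.11.5. UMIs were summed over members of a library and divided by their total (CPM). A sum weighs deep cells more than shallow ones. Ratios have exact conditional binomial 95% intervals and shares Clopper-Pearson intervals; list medians use 5 CPM added to both sides. With 1 library per group there is no p-value. Other cell types were gated by their marker share of UMIs. On simulated counts of 6144 genes for this comparison, 98.5% of 200 genes changed 2-fold and 2.46% of unchanged genes were called. The simulated counts had counting error alone around the members' pooled profile, with no differences between cells. The changed genes were picked above a higher level than the 20 CPM minimum. These rates therefore need not hold for the real sums, where single cells can carry much of a gene.

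Named genes were the gate genes, Napsa, Ifitm1, Apoe and Malat1; the 12 highest and 12 lowest ratios among called genes of at least 50 CPM and 30 UMIs whose level was at least 20% of that in the richest other cell type; up to 4 called genes per list and direction; and the 10 leading genes. Genes given as values between the limits, and the other markers and list members named in the text, were chosen after their values were seen. The members and the 17 gene lists were chosen with earlier results of these data known. Alternatives changed each gate limit, the denominator, the scaling, the minimum, doublets and stromal cells; those that left out the 3 richest cells or took 1 side of the Lyz2 division were added after seeing the data. Single values of a few listed genes are not reported here.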

Additional observations from a re-analysis of the deposited data

Results flagged for a closer look

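In 3 genes the log2 ratio, inhibitor over DMSO, had one direction in Cd209a dendritic cells and the opposite in class II cells with C1q, past the limits in both. These differences were not tested, since each group is 1 library. Fabp5, a fatty acid carrier gene, was at 0.83 in Cd209a dendritic cells and -1.82 in class II cells with C1q. In members 129 of its 492 inhibitor UMIs and 99 of its 477 DMSO UMIs came from 1 cell each. Cd14, a lipopolysaccharide co-receptor gene, was at -0.63 in Cd209a dendritic cells and 0.58 in class II cells with C1q. Lyz1, a lysozyme gene, was at -1.75 in Cd209a dendritic cells and 1.66 in class II cells with C1q, and 275 of its 328 UMIs in the DMSO members came from 1 cell. Cd14 was at 74.0 CPM in inhibitor and 118 CPM in DMSO members, 14.7% of its level in neutrophils. Class II cells without C1q or Cd209a had the members' order for Fabp5, at 2140 CPM with inhibitor and 1483 CPM with DMSO. They also had it for Cd14, at 82.9 CPM with inhibitor and 136 CPM with DMSO. Lyz1 was there at 788 CPM with inhibitor and 24.3 CPM with DMSO, the order of class II cells with C1q.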

How the results depend on the processing

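The share of Cd209a dendritic cells kept its lower direction in the inhibitor library, at a log2 ratio of -0.72 to -0.59, under 8 other settings, doublet removal and thinning among them. It turned to 0.063 with 0 C1q UMIs, 0.71 per Ptprc-positive cell and 0.57 per class II cell. The count of genes higher in the inhibitor library was 625 with no minimum, against 292, and 115 with a minimum of 50 CPM and 50 UMIs; the count of genes lower in the inhibitor library was then 288. Without cells called by Scrublet 222 were higher and 596 lower, of which 154 and 436 were shared; its automatic threshold called 0 DMSO cells, so the inhibitor library's was used for both, and it called 12 inhibitor and 14 DMSO members. Scaling by the median ratio gave 347 higher and 529 lower. Some genes turned. The log2 ratio of Lyz1 was 0.40 with 0 C1q UMIs and 0.32 on the Ifitm1 side. On the Lyz2 side the log2 ratio of Tnf was 0.11, the log2 ratio of Ifit2 1.13, the log2 ratio of Ifit3 1.09 and the log2 ratio of Hilpda 0.34. The log2 ratio of Cd36 was -1.47 without called doublets and -4.06 without the 3 richest cells, the log2 ratio of Lpl 0.20 without stromal-rich cells, and the log2 ratio of Ube2c 0.066 as a mean over cells and 0.52 without the 3 richest. The cause was not tested. For called named genes, 771 alternative values stayed inside the 95% interval, 105 moved beyond it and 11 turned. No paired analysis was possible because each group has 1 library. Genes of few UMIs are limited by depth.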

Other observations

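Some markers of other lineages were found in members without the rest of their list, chosen here after their values were seen. They were not confined to members. Il7r, encoding the interleukin-7 receptor, was at 66.7 CPM in inhibitor and 24.8 CPM in DMSO members, in 23.5% of inhibitor and 11.4% of DMSO members, while Cd3d was at 2.93 CPM with inhibitor and 1.26 CPM with DMSO. Class II cells without C1q or Cd209a held Il7r at 72.9 CPM with inhibitor and 68.7 CPM with DMSO. Those with C1q held Il7r at 36.9 CPM with inhibitor and 44.2 CPM with DMSO. Ighm, the heavy chain gene of IgM, was at 86.5 CPM with inhibitor and 89.5 CPM with DMSO, in 47.7% of inhibitor and 48.5% of DMSO members, with Ms4a1 at 0 CPM with inhibitor and 0.420 CPM with DMSO. Class II cells with C1q held more Ighm, at 151 CPM with inhibitor and 125 CPM with DMSO. Without C1q or Cd209a Ighm was at 67.9 CPM with inhibitor and 93.3 CPM with DMSO. Kit was at 54.2 CPM in both libraries, in 32.6% of inhibitor and 31.4% of DMSO members, with the mast cell genes Cpa3 at 0 CPM with inhibitor and 0.840 CPM with DMSO and Ms4a2 at 0 in both. Class II cells without C1q or Cd209a held Kit at 50.9 CPM with inhibitor and 67.1 CPM with DMSO. Those with C1q held little, at 1.98 CPM with inhibitor and 5.60 CPM with DMSO. Ccl22, the partner of Ccl17 as a Ccr4 ligand and its neighbour on chromosome 8, was at 19.1 CPM with inhibitor and 2.94 CPM with DMSO, in 9 of 132 inhibitor and 6 of 229 DMSO members. Class II cells without C1q or Cd209a held more Ccl22, at 143 CPM with inhibitor and 131 CPM with DMSO.

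In smooth muscle and fibroblast cells together, a UMI of Hspa1a was found in 76.9% of inhibitor and 61.4% of DMSO cells, and in 53.8% of inhibitor and 77.3% of DMSO members, so the order of the libraries was opposite in the stromal cells. A UMI of Fos was found in 68.9% of inhibitor and 90.2% of DMSO stromal cells, and in 93.9% of inhibitor and 96.1% of DMSO members.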
